A study of Caenorhabditis elegans with 8 samples.

Results

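MiR-787, miR-788 and miR-799 (cel-miR-787, cel-miR-788 and cel-miR-799 in the files) are 3 microRNAs of Caenorhabditis elegans whose array signal was brightest, with 1 exception, in worms that never left the home laboratory. They were chosen, by name, for that pattern, and make up 3 of the 156 C. elegans probes on the array. MiR-788 and miR-799 were brighter on both no-transport arrays than on each of the other 6. MiR-787 was so in the wild type N2 only: in the mutant LS292 its brightest array was static flight, so the description "high without transport" does not hold there.

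MicroRNAs are short RNAs cut from a hairpin precursor. Loaded into an Argonaute protein, they pair with messenger RNAs, mostly through the few bases near their 5′ end called the seed, and lower the output of those messages. In the worm, let-7 and its relatives are the best known: they time the larval transitions and take part in how larvae leave the dauer state, the stress-resistant stage in which these worms were loaded. No role is stated here for miR-787, miR-788 or miR-799 themselves.

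The series addressed the joint effect of space radiation and microgravity, in worms with and without an intact dystrophin gene dys-1. N2 is the wild-type Bristol strain and LS292 carries the allele dys-1(cx18). Both strains were grown on nematode agar and synchronised as dauer larvae. A temperature of 23 °C is given for the flight and ground samples. Static flight combined radiation (1.92 mGy) with microgravity for 16.5 days on Shenzhou-8, and a centrifuge on the same flight gave 1g with radiation (2.27 mGy). The ground control ran for 16.5 days in a static slot of the same hardware in Beijing, and was collected after 7 h, as the flown worms were. The fourth condition, whose titles say transport control, consists of worms held in an incubator at the home university without transport. It is the no-transport control below. The labels give it no duration, temperature, hardware or collection time. Transport, hardware, site, temperature and timing thus cannot be told apart in any comparison with it. Each strain and condition is 1 sample of many pooled worms on 1 array, 8 arrays in all. In such whole-worm RNA, fewer cells that make a microRNA and less of it per cell cannot be told apart.

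The intensity of a probe is given here as the median of its 4 spots, each spot being the foreground minus its local background, in scanner units. Between 11 and 19 named probes per array reached 50, the value used here as the detection minimum, and 20 of 156 did so on 2 or more arrays. All 3 of these microRNAs were among the 20. On the N2 static flight array 23.7% of spots were over 50 units dimmer than their own background, against 3.30% to 10.7% on the others.

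In the gene table of the WBcel235 assembly (RefSeq), mir-787, mir-788 and mir-799 are separate microRNA genes on the X chromosome, and none overlaps another listed gene. Mir-788 and mir-799 are each other's nearest microRNA gene, with 35 listed genes between them, of which 24 code for protein. The nearest microRNA gene to mir-787 is mir-254. Sharing the X chromosome does not set them apart from the probes that gave signal: of the 20 probes past the minimum, 19 matched the gene table and 12 of these (63.2%) lie on X, against 45 of the 143 matched among all named probes (31.5%).

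MiR-788 was brighter without transport in both strains. Its spot median in N2 was 151 without transport, 23 on the ground, 42 in static flight and 72.5 on the centrifuge. In LS292 the same conditions gave 137, 18, 56 and 57.5. Both no-transport arrays thus lay above the other 6, both ground arrays were the dimmest in their strain, and the 2 strains had nearly the same value without transport, with a ratio of N2 to LS292 of 1.10.

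The single spots of miR-788 bear on how far that separation can be read. In N2 the 4 no-transport spots were 120, 137, 165 and 246, all above the highest ground spot of 36 and the highest static flight spot of 71, and 3 of the 4 lay above the highest centrifuge spot of 125. In LS292 they were 185, -190, 132 and 142, of which the first and second sat on a local background of 248 and 1860, against an array median of 46. The second has a negative intensity because its background exceeded a foreground of 1670. With both of these spots left out the LS292 median remained 137, since the remaining spots lie on either side of it. Spots are repeats on 1 array and not samples.

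Within each strain the ratio of miR-788 without transport to the ground control was at least 3.02-fold in N2 and at least 2.74-fold in LS292. These are lower bounds, because the ground values lie below 50 and were raised to 50. Over static flight the ratio was at least 3.02-fold in N2 and 2.45-fold in LS292, and over the centrifuge 2.08-fold and 2.38-fold. All 6 ratios by the spot median were at least 2-fold. The LS292 ratio over ground did not stay there with the mean of the 4 spots, which takes in the spot of -190 and gave at least 1.34-fold. The pattern chose this microRNA, and each ratio rests on 2 arrays, so no test is given.

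MiR-799 also had its highest value without transport and its lowest on the ground in both strains. Its spot median in N2 was 116 without transport, 34 on the ground, 39.5 in static flight and 72 on the centrifuge. In LS292 the values were 111.5, 32.5, 55.5 and 33. The no-transport arrays again lay above the other 6, and the strains were again close there by the spot median, with a ratio of 1.04. The authors' deposited fold change of LS292 over N2 was 0.703 there, while plain foreground was 159.5 in N2 and 155.5 in LS292. The order of the flight conditions differed: the centrifuge was above static flight in N2 and below it in LS292, where it lay next to the ground value.

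For miR-799 the gap to the centrifuge was the weak one in N2. The 4 no-transport spots in N2 were 93, 103, 178 and 129, and only 1 of them exceeded the brightest centrifuge spot of 167, although all 4 exceeded every ground and every static flight spot. The ratio over the centrifuge was 1.61-fold in N2 and at least 2.23-fold in LS292. Over the ground control it was at least 2.32-fold and 2.23-fold, and over static flight at least 2.32-fold in N2 and 2.01-fold in LS292. In LS292, 1 no-transport spot stood on a local background of 552, and without it the spot median was 100 in place of 111.5.

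MiR-787 had its highest value without transport in N2 but not in LS292. In N2 its spot median was 228.5 without transport, 49.5 on the ground, 49.5 in static flight and 81.5 on the centrifuge. The 4 no-transport spots ran from 204 to 329 and lay above every spot of the other N2 arrays. In LS292 the medians were 77.5, 56, 128 and 42 in the same order. There static flight was highest, and the no-transport array came second.

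The LS292 no-transport value of miR-787 also depended on 1 spot. Its spots were 84, 64, 71 and 416, with none on a high local background, so the median of 77.5 and the mean differ widely. Replacing the median by the mean moved the ratio over ground in LS292 from 1.38-fold to 2.10-fold. In N2 the ratio over ground was at least 4.57-fold by the median and 4.78-fold by the mean. Against static flight the ratio was at least 4.57-fold in N2 and 0.605-fold in LS292, and against the centrifuge 2.80-fold and at least 1.55-fold.

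**Figure D1:**
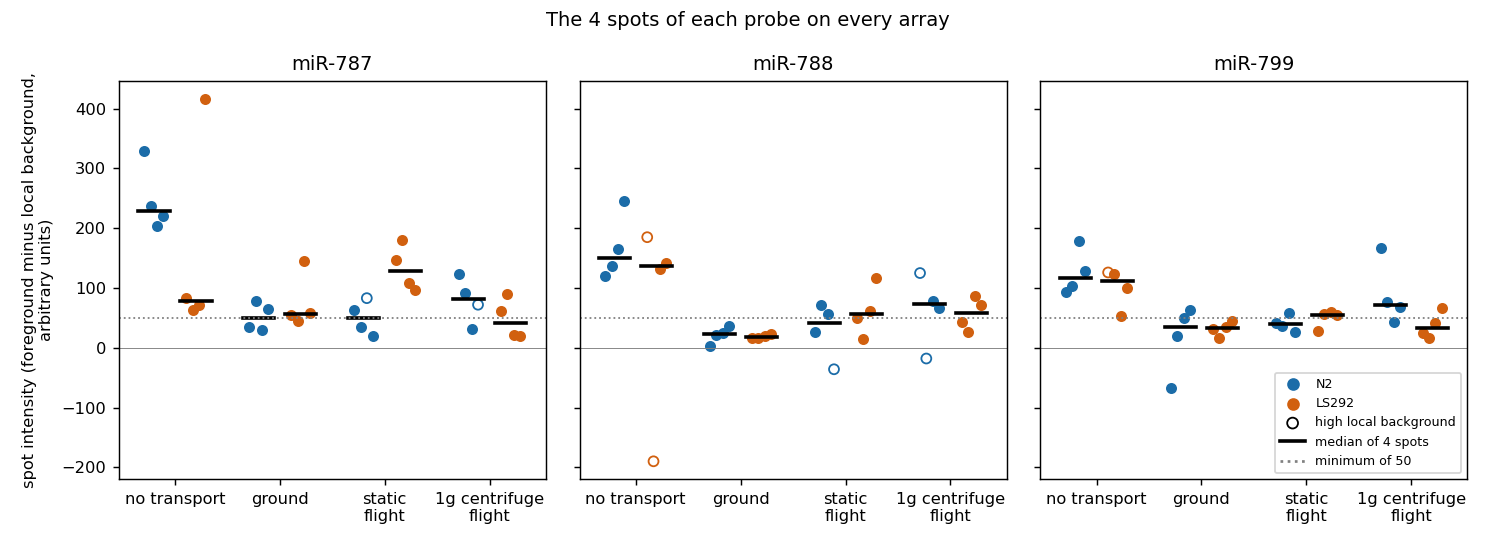
Intensity of each of the 4 spots (vertical axis, foreground minus local background in scanner units) of miR-787, miR-788 and miR-799 in the 4 conditions (horizontal axis), with N2 in blue and LS292 in orange. Bars are medians of 4 spots, open circles are spots whose local background exceeded 3 times the median of their array, and the dotted line is the minimum of 50. MiR-788 and miR-799 have their highest medians without transport in both strains (151 and 137, 116 and 111.5), while LS292 miR-787 is highest in static flight (128).

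Taken over both strains, the order of the conditions can be set against the spread between the strains. MiR-788 averaged 144 ± 9.90 (SD, n = 2 strains) without transport, 65.0 ± 10.6 on the centrifuge, 49.0 ± 9.90 in static flight and 20.5 ± 3.54 on the ground. No 2 neighbours in that order had overlapping strain values. MiR-799 averaged 113.8 ± 3.18 without transport, 52.5 ± 27.6 on the centrifuge, 47.5 ± 11.3 in static flight and 33.2 ± 1.06 on the ground, with overlap between the 2 flight conditions and none between no transport and the centrifuge or between static flight and ground. MiR-787 averaged 153 ± 107 without transport, 88.8 ± 55.5 in static flight, 61.8 ± 27.9 on the centrifuge and 52.8 ± 4.60 on the ground, with overlap between all neighbours. The ground control was the lowest condition by this mean for all 3. The median named probe was also lowest on the ground array of each strain, at -6.5 in N2 and -3 in LS292.

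Spots within a strain overlapped more than the medians did. Of the 18 steps between neighbouring conditions (3 microRNAs, 2 strains, 3 steps each), 17 had overlapping spot ranges. The step without overlap was N2 miR-787 from no transport to the centrifuge. No such count is given for the other probes, so it only describes these 3.

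The pattern that marks miR-788 and miR-799 was common on these arrays. Of all 156 named probes, 52 (33.3%) were brighter on both no-transport arrays than on every other array, as were 635 of 2145 probes without a name (29.6%). Most of these were dim: 49 of the 136 named probes below the minimum had it. The median named probe was 19.25 in N2 and 8.75 in LS292 without transport, against -6.5 to 6.5 on the other 6 arrays, so dim probes as a whole were raised there. Empty spots had a median of 3 and 1 on the no-transport arrays and of -1.5 to 0 on the others.

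Most bright probes went the other way. For the 163 probes, named or not, that reached 50 on all 8 arrays, the median ratio of no transport to ground was 0.473 in N2 and 0.649 in LS292. Of these probes, 24.5% in N2 and 23.9% in LS292 were higher without transport. Let-7 and miR-84 were the 2 of 20 detected microRNAs (10%) lower on both no-transport arrays than on all others. Let-7 was 128 and 338 without transport in N2 and LS292, against 343 to 655 elsewhere, and miR-84 was 62 and 59.5 against 76.5 to 201.5. For miR-787, miR-788 and miR-799 the no-transport intensity lay above the ground intensity in both strains. So did that of 138 of the 156 named probes in N2 (88.5%) and 125 in LS292 (80.1%), and none of the 3 is among the probes bright on all 8 arrays.

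Among the 20 detected microRNAs the high pattern was held by 3 (15%), which were miR-788, miR-799 and miR-1824. MiR-1824 was close to the minimum, at 63 in N2 and 54.5 in LS292 without transport and 18.5 to 52.5 elsewhere. Of the 12 named probes that reached 50 on both no-transport arrays these 3 made up 25%, and of 215 such unnamed probes 23 (10.7%) were higher on both.

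The levels can also be given relative to the dim probes of each array, by an alternative added after the data were seen. With the median of the named probes taken off each array, miR-788 stood at 131.75 and 128.25 without transport against 21 to 66 elsewhere. MiR-799 stood at 96.75 and 102.75 against 28.25 to 65.5. Both remained above all other arrays, while the number of named probes with the pattern went from 52 to 10 of 156 (6.41%). MiR-787 stood at 209.25 in N2 and 68.75 in LS292, against 37.25 to 124.75 elsewhere.

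In LS292, miR-788 and miR-799 were the only 2 of 156 named probes (1.28%) with a no-transport intensity at least 2-fold over the ground control once ground values were raised to 50. In N2 there were 4 (2.56%): miR-787, miR-788, miR-799 and miR-354, the last of which reached 115 without transport against 10.5 on the ground and did not pass the detection filter. Over static flight the counts were 4 in N2 (2.56%), the same 4 probes, and 3 in LS292 (1.92%), which were miR-788, miR-799 and miR-81. Over the centrifuge they were 5 in N2 (3.21%), without miR-799, and 2 in LS292 (1.28%). The members were picked from this contrast, so these shares only describe how many other probes looked like them.

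**Figure D2:**
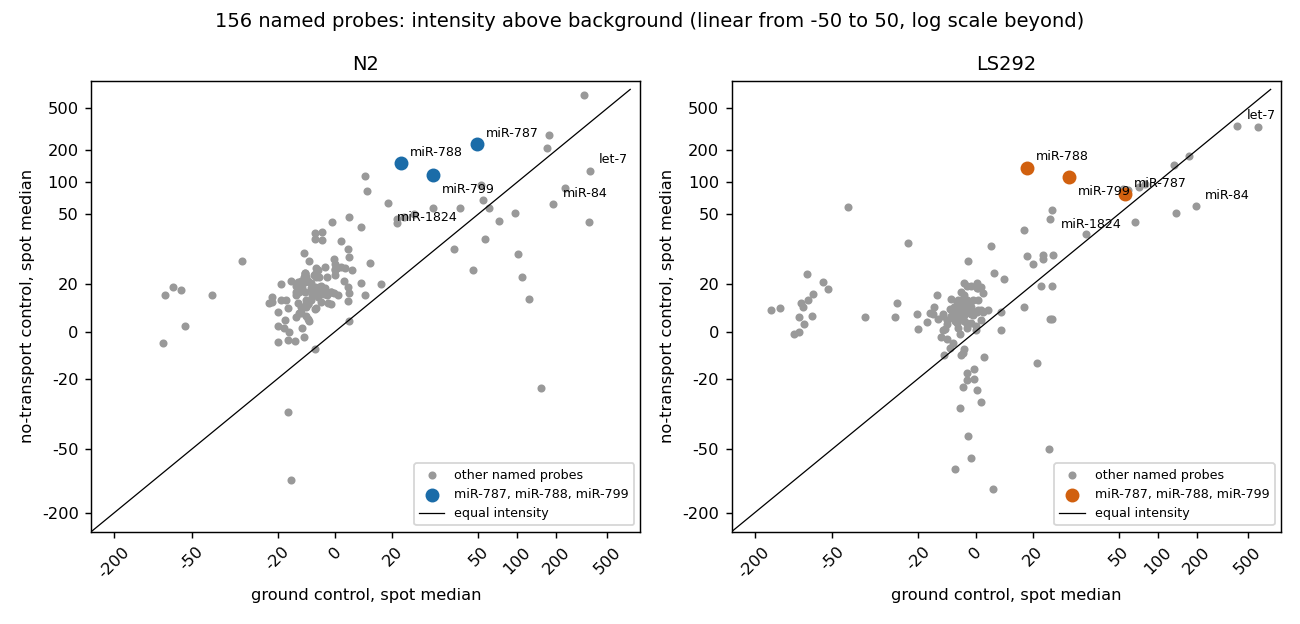
Spot-median intensity of the 156 named probes on the ground control array (horizontal axis) and the no-transport array (vertical axis) of each strain, in scanner units, on axes that are linear between -50 and 50 and logarithmic beyond. The cloud of dim probes lies above the line of equal intensity (median difference 24.5 in N2 and 12.5 in LS292), let-7 and miR-84 lie below it, and miR-788 and miR-799 lie above the cloud in both strains.

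How large the differences appear depends on how the arrays are scaled. In the authors' deposited table the fold change of no transport over ground was 12.03 in N2 and 8.59 in LS292 for miR-788. The authors' deposited table gives 6.25 and 3.87 for miR-799, and 8.46 and 1.56 for miR-787. The normalized values behind these folds divide each array by 1 constant, which equals the array's median over the 5 worm probes that reached 50 everywhere (miR-1823, miR-257, miR-55, miR-84 and let-7). That constant was 128 in N2 and 175 in LS292 without transport, against 197.5 to 294 on the other arrays, and 2 of its 5 probes, let-7 and miR-84, are those that were lowest without transport. The deposited ratios also use ground intensities as low as 23 and 18, below the minimum. With ground raised to 50 and the constants kept, the ratios were at least 5.53-fold and 3.09-fold for miR-788 and 4.25-fold and 2.52-fold for miR-799. For miR-787 they were at least 8.37-fold in N2 and 1.56-fold in LS292.

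Subtraction of the local background matters as well. In plain foreground intensity, miR-788 was 202.5 in N2 and 309.5 in LS292 without transport against 79.5 to 160.5 elsewhere, and miR-799 159.5 and 155.5 against 79.5 to 120.5. Both patterns held there. The foreground ratios over ground were 2.06-fold and 3.89-fold for miR-788 and 1.47-fold and 1.77-fold for miR-799, and for miR-787 they were 2.19-fold in N2 and 1.03-fold in LS292. The LS292 foreground of miR-788 is raised by its 2 spots on a high local background, with foregrounds of 433 and 1670, while the other 2 spots had 175 and 186. Of the 96 member spots, 8 had a local background over 3 times their array's median, 5 of them for miR-788.

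**Figure D3:**
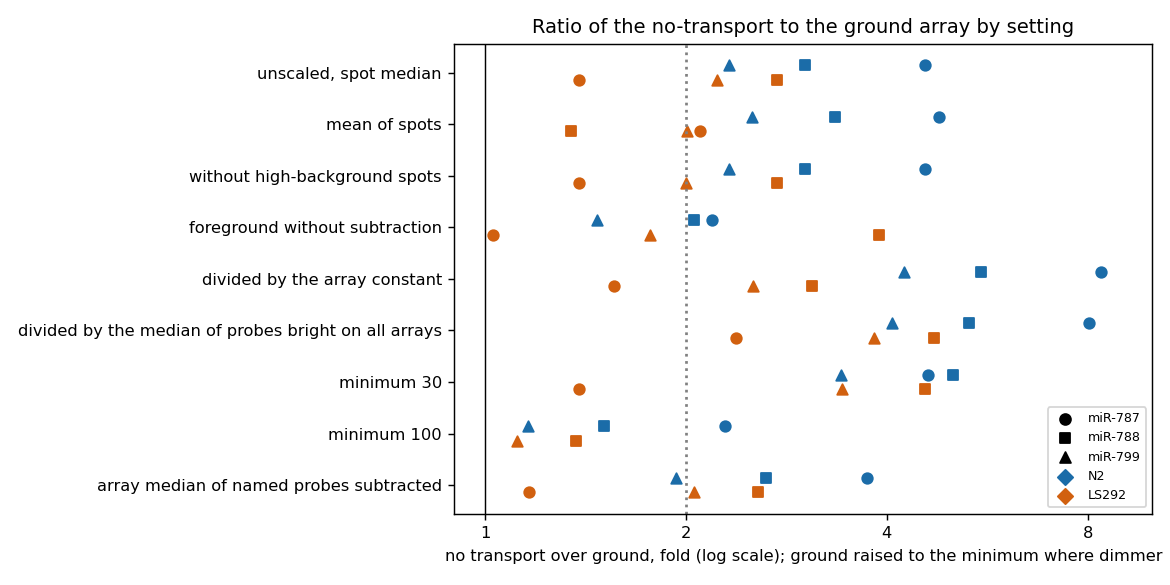
Ratio of the no-transport to the ground array (horizontal axis, log scale) for each microRNA (symbol) and strain (colour) under each way of processing the spots (vertical axis). Ground values were raised to the minimum where they lay below it, so such points are lower bounds. N2 miR-787 stays above 2-fold in every setting, and LS292 miR-787 lies at 1.38-fold by the unscaled spot median.

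Comparisons among flight and ground and between strains are not the contrast that chose the members. They were fitted with limma on background-corrected, quantile-normalized log2 values of the 20 detected microRNAs. Strain and condition were additive terms over all 8 arrays. The strain comparison therefore includes the no-transport arrays, whose values entered the choice, as does the spread that all fits share. The 2 strains serve as the samples of a condition, so p-values reflect only how far these arrays differ from each other. Of the 6 flight and ground arrays, miR-787 and miR-788 reached 50 on 3 each and miR-799 on 2, so all 3 would pass the detection filter without the no-transport arrays.

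None of the 3 passed in any of these comparisons. For static flight against ground, limma called 0 of 20 microRNAs (0%) at a threshold of 0.05 on the adjusted p, and before adjustment 0 were under 0.05. MiR-788 differed by log2 0.06 (95% interval -0.24 to 0.36, limma adjusted p 0.991) and was higher in flight in both strains. MiR-799 differed by log2 0.05 (interval -0.26 to 0.36) and miR-787 by 0.05 (interval -0.26 to 0.36), each higher in flight in 1 of 2 strains on this scale. In scanner units, miR-788 was 42 and 56 in static flight and 23 and 18 on the ground, without overlap between the conditions. On other scales the fitted difference of miR-788 was log2 0.14 with median scaling, 0.52 with scaled spot medians and 1.10 with plain background subtraction.

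For the centrifuge against ground, limma called 1 of 20 (5%), which was miR-257 and not a member. MiR-788 differed by log2 0.07 (interval -0.23 to 0.37, limma adjusted p 0.846) and was higher on the centrifuge in both strains. MiR-799 differed by 0.09 (interval -0.22 to 0.40) and miR-787 by -0.05 (interval -0.36 to 0.26). These 2 comparisons share the ground arrays. For static flight against the centrifuge, limma again called 1 of 20 (5%), miR-257, and the members differed by log2 0.11 for miR-787 (interval -0.20 to 0.42, limma adjusted p 0.788), -0.01 for miR-788 and -0.04 for miR-799.

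LS292 and N2 did not differ detectably for any of the 3. Limma called 0 of 20 (0%), and before adjustment 0 were under 0.05. The difference of LS292 minus N2 was log2 -0.02 for miR-787 (interval -0.24 to 0.20), -0.07 for miR-788 (interval -0.28 to 0.15) and -0.02 for miR-799 (interval -0.24 to 0.19), with a limma adjusted p of 0.947 for each. Across the alternatives no member passed in any of the 4 comparisons. The intervals hold on the normalized scale and do not show that the levels are equal.

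**Figure D4:**
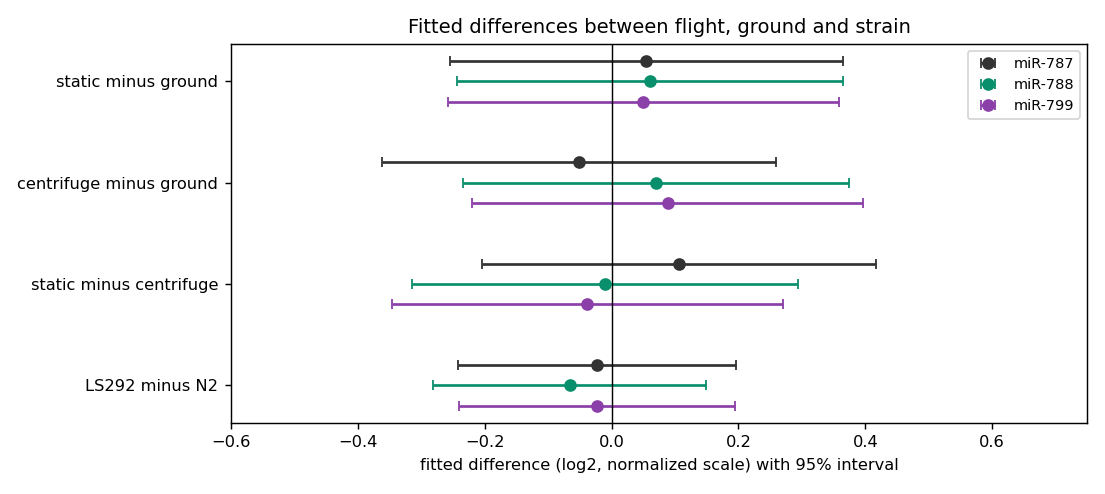
Fitted log2 differences on the quantile-normalized scale (horizontal axis) with 95% intervals for miR-787, miR-788 and miR-799 in the 4 tested comparisons (vertical axis). LS292 minus N2 includes the no-transport arrays, whose values entered the choice of members. Every interval includes 0.

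MiR-788 and miR-799 had the most similar profiles of the 3 only with the no-transport arrays included. Over the 8 arrays the Pearson r of their log2 spot medians was 0.90, against 0.78 for miR-787 with miR-799 and 0.65 for miR-787 with miR-788. Without the no-transport arrays, for which they were chosen, the same values over 6 arrays were 0.71, 0.78 and 0.40, so miR-787 with miR-799 came first. The arrays share the brightness differences described above, so these values only describe likeness. Among the other detected microRNAs, the normalized profile over 8 arrays was most like the mean of the 3 for miR-55 (r 0.71), miR-52 (0.46) and miR-230 (0.44). The ranking changed with the scale. With intensities raised to 50 and divided by the array constants, the most alike were miR-1824 (r 0.95), miR-255 (0.88) and miR-796 (0.87), and r was 0.78 for miR-55 and 0.82 for miR-52. MiR-1824 was at most 63 and miR-796 at most 60.5. Once raised to 50, both therefore largely trace the constants that also divide the members. Their r on that scale does not show likeness of the microRNAs.

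MicroRNA numbers are given in order of registration, and the neighbours in number were taken as a list to set beside the 3. Of 14 other microRNAs numbered miR-784 to miR-800, all were on the array and 2 passed the minimum, miR-795 of the let-7 family and miR-796. Their brightest no-transport value was 57, for miR-795 in N2, where static flight gave 85.5. Of the 14, 5 were higher on both no-transport arrays, a share near the 33.3% of all named probes, and all of them lay below 50: miR-785, miR-790, miR-794, miR-797 and miR-800. The list's median difference of no transport over ground was 25 in N2 and 10.5 in LS292, against 24.5 and 12.5 for all named probes and 128 and 79 for miR-787, miR-788 and miR-799.

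The worms were loaded as dauer larvae, and 9 microRNAs linked to dauer or starvation were set beside them. Of these, 2 passed the minimum, let-7 and miR-84, and both were lower on both no-transport arrays. They are the 2 of 20 detected microRNAs (10%) with that low pattern. Both are among the probes bright on all 8 arrays, whose median ratio of no transport to ground was 0.473 in N2 and 0.649 in LS292. The low pattern was not counted on other scales. MiR-34, miR-48 and miR-71 were higher on both, at no more than 39.5, and 3 of 9 is the share of all named probes (33.3%). Lin-4, which times early larval stages, was 18.5 and 7 without transport. The median difference of the list over ground was 23.5 in N2 and 13.5 in LS292, close to that of all named probes.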

How the data were processed

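Total RNA labelled with Hy3 was hybridised to 1-colour arrays, 1 array per strain and condition. For each of 10080 spots the deposited table holds, per the file headers, the intensity of the foreground and that intensity less the background. The authors' deposited probe values equal the median of the 4 spots, and their normalized ratio equals that median divided by 1 constant per array (100% of named values checked). How the images were scanned and read is not given in the sources. Probe names stand as deposited, and no probe or microRNA sequence was used, so no list by shared seed was formed.

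The deposited intensity was used as the median of 4 spots with a minimum of 50. For tests, limma 3.58.1 in R 4.3.3 applied normexp with offset 50, the log2 spots were averaged and quantile normalized over 156 named probes, those at 50 or more on 2 or more of 8 arrays were kept, and an additive fit left 3 residual degrees of freedom, with Benjamini-Hochberg adjustment at 0.05. The fit was tested on simulated data, with larger changes than the members showed and without the background and normalization steps. It does not show whether changes as small as those of the members could be found. The members and lists were chosen with earlier results of these data known. Other microRNAs named share the high or low pattern, are most like the mean profile, form the authors' constant or belong to a list. MiR-354, miR-81 and miR-257 were named after their values were seen. Alternatives covered background, scaling, spots, filter, prior and arrays, and subtraction of each array's median named probe was added after seeing the data. The number of arrays limits the precision.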

Additional observations from a re-analysis of the deposited data

Results flagged for a closer look

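The strains moved in opposite directions for 4 of 18 differences between 2 conditions in spot-median intensity, and none of these differences between strains was tested. For miR-787, no transport minus static flight was 179 in N2 and -50.5 in LS292, static flight minus the centrifuge was -32 and 86, and the centrifuge minus ground was 32 and -14. For miR-799, static flight minus the centrifuge was -32.5 in N2 and 22.5 in LS292. Each value rests on 1 array per strain and condition, and no such count is given for the other probes.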

How the results depend on the processing

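MiR-788 and miR-799 stayed above every other array without transport under all 8 settings tried for that pattern. Of these, the minimum of 30 and the minimum of 100 change only which probes are counted. The 8 settings did not include the quantile-normalized log2 scale of the fits. On that scale N2 miR-799 had the same value, 7.91, without transport and on the centrifuge. LS292 miR-788 was 7.83 without transport there, against 7.80 on the centrifuge and 7.70 on the ground. All 8 settings reuse the arrays on which the members were chosen, so they only describe the members. MiR-787 met the pattern with the mean of spots and with division by the median of probes bright on all arrays. The number of detected microRNAs with the pattern went from 3 to 5 when arrays were divided by the array constant and to 5 with a minimum of 30, to 4 when divided by the median of probes bright on all arrays, and to 2 with a minimum of 100 or with the array median of the named probes subtracted (an alternative chosen after seeing the data). Of the 6 ratios over ground (3 microRNAs, 2 strains), 5 were at least 2-fold. This was 3 for the foreground without subtraction and 4 with the array median of the named probes subtracted. It was 6 with division by the median of probes bright on all arrays. With a minimum of 100, which raises the ground values further, it was 1. There LS292 miR-787 gave no ratio, since both arrays lay below that minimum. In LS292 the ratio of miR-788 was 1.34-fold with the mean of spots, which takes in its spot of -190.

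No member passed in any of 249 alternative values of the 4 tested comparisons, and 34 of these had the opposite sign to the reported value; the cause was not tested. For LS292 minus N2 those were 0.090, 0.13 and 0.043 (log2, miR-787, miR-788 and miR-799) with background subtraction, 0.010 for miR-787 without high-background spots, and 0.016 and 0.033 for miR-788 and miR-799 with the median of spots. For the centrifuge minus ground they were 0.011 for miR-787 with the median of spots, -0.12 and -0.14 for miR-788 and miR-799 with median scaling, and -0.066 for miR-799 with the authors' values. For static flight minus the centrifuge, miR-788 was 0.43 with background subtraction, 0.26 with median scaling and 0.12 with the authors' values, and miR-799 was 0.20, 0.24 and 0.22 in the same settings, 0.0046 with the median of spots and 0.13 with scaled spot medians. Leaving out each array in turn gave, for LS292 minus N2, -0.087 to 0.022 for miR-787, -0.10 to 1.62e-05 for miR-788 and -0.069 to 0.035 for miR-799. For static flight minus ground it gave -0.072 to 0.18 for miR-787 and -0.0056 to 0.11 for miR-799. For the centrifuge minus ground the ranges were -0.18 to 0.075 for miR-787 and -0.028 to 0.20 for miR-799, and for static flight minus the centrifuge -0.080 to 0.059 for miR-788 and -0.15 to 0.078 for miR-799.

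The counts of calls, none of them a member, were 1 for each comparison with the centrifuge. For the centrifuge minus ground the count was 0 with background subtraction, quantile normalization over all probes, the median of spots, removal of high-background spots, the authors' values, scaled spot medians or the 4 arrays alone, and 2 with a trended robust prior. For static flight minus the centrifuge it was 0 with median scaling, quantile normalization over all probes, the median of spots, removal of high-background spots, the authors' values or the 4 arrays alone, 2 with scaled spot medians and 3 with background subtraction. Leaving out each array in turn gave 0 to 2 calls for both, 0 to 1 for static flight minus ground and 0 for LS292 minus N2. The centrifuge minus ground had 0 without either ground array and 2 without the N2 centrifuge array, static flight minus the centrifuge had 0 without either static array and 2 without the N2 centrifuge array, and static flight minus ground had 1 without the LS292 ground array. The labels give no replicate numbers to use as a block, and the strain term compares conditions within each strain. Signals near the minimum limit every difference among the flight and ground arrays.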
